A study of Mus musculus with 6 samples.

Results

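The cullin ubiquitin ligase scaffolds are the genes of the 8 cullins Cul1, Cul2, Cul3, Cul4a, Cul4b, Cul5, Cul7 and Cul9, the Cul4 adaptor Ddb1 and the RING subunit Rbx1. They were described in testes of mice with a deletion of the gene for the minor spliceosome RNA U11. The 10 genes were chosen by exact match of their symbols among 55353 genes, and all 10 passed the filter on low values, as did 17959 genes in all. At the gene level no member passed the test. Cul1 read lower in every mutant than in any control, with means of 56.8 TPM in control testes and 44.1 TPM in mutants. Within Cul1 and Cul4a, the isoform that runs through a 5′ splice site of the minor type read higher in all 3 mutants, while the summed level of the isoforms spliced there read lower. Neither site passed the test (limma adjusted p = 0.113 and 0.678). TPM is a transcript level corrected for length and scaled to a fixed library total.

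Whole testes came from 3 control mice and 3 Rnu11 conditional knockout mice (Rnu11 cKO, called mutants below), all of postnatal day 14. Rnu11 encodes U11. The sources used here do not give the Cre line, the cells it acts in or the controls' genotype. Each library was rRNA-depleted, stranded total RNA. These values keep no record of read depth, which is unknown.

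Rnu11 itself stood at 614, 576 and 550.3 TPM in control testes and at 196, 393 and 203 TPM in mutants (limma adjusted p = 0.294). All 3 mutants were below the controls, and mutant 2 kept the most. Levels of several cell type marker lists differed between the groups, although limma called no single marker. All 10 meiotic prophase markers read lower in mutants, with summed levels of 393 to 480.4 TPM in control testes and 271 to 351 TPM in mutants. All 8 pachytene markers and all 4 general germ cell markers read lower by their means as well, but the pachytene sums overlapped (76.7 to 157 TPM and 74.3 to 92.1 TPM). Of 6 markers of undifferentiated spermatogonia, 3 read higher and 3 lower, with sums of 127 to 145 TPM and 128 to 142 TPM. All 10 Sertoli markers read higher, summing to 1234 to 1323 TPM in control testes and 1628 to 2170 TPM in mutants. So did all 7 Leydig, all 4 endothelial and all 4 macrophage markers, but the endothelial and macrophage sums overlapped. Of 5 peritubular myoid markers, 3 read higher and 2 lower. Over all genes tested, 66.4% read higher in mutants. Of 4 round spermatid markers, Acrv1, Prm1 and Tnp1 stayed under 1 TPM in all 6 libraries. In whole testes, fewer cells of a type and less RNA per cell cannot be told apart, and the part of these shifts in the values below was not tested.

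Cullin-RING ligases attach ubiquitin to target proteins. A cullin is the scaffold: one end holds an adaptor and substrate receptor, the other holds the RING protein RBX1 or its relative RNF7, which brings in the charged ubiquitin-conjugating enzyme. Conjugation of NEDD8 to the cullin switches the ligase on, and the COP9 signalosome removes it. In male germ cells, CUL4A with DDB1 is known to be needed in meiosis, and SKP1, the adaptor of the CUL1-based SCF ligases, is needed in spermatocytes. The minor spliceosome removes a rare class of introns, whose 5′ splice site is recognised by U11. Cul4a is a reported carrier of such an intron.

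The 5′ splice sites shown here are those on which the isoform results turn, with 1 ordinary site of the same gene beside each for comparison. The first 8 intron bases are in capitals, after 6 exon bases.
Cul1 exon 2 site: ctacacGTATCCTCttgcttgagctgtagt
Cul1 exon 18 site: ttgctgGTATGTTTgtatactttgtgttga
Cul4a exon 3 site: cagagaATATCCTTtctttgttttgctttt
Cul4a exon 7 site: agggagGTGAGCTGtgcggccgactgcatt
On GRCm38 and the plus strand these are chr6:47485039-47485068 and chr6:47523120-47523149 in Cul1, and chr8:13115568-13115597 and chr8:13123954-13123983 in Cul4a. Each exon here is coding at its end, and exon numbers are those of Cul1-201, with 22 exons, and Cul4a-201, with 20. Transcripts of GENCODE M21 that run over these positions supplied the bases. A site was called minor-type if the intron starts with G or A, then T, then ATCCTT with at most 1 mismatch in these last 6 bases, on the transcribed strand. Of 36294 sites of protein-coding genes that could be read, 325, or 0.895%, were of this type, and 161, or 0.444%, had no mismatch. Among the members, 41 sites were read and 2 were minor-type: the Cul4a exon 3 site, without a mismatch, and the Cul1 exon 2 site, with 1. A match describes letters and is not a test of which spliceosome acts there. The Cul1 intron spans 10022 bases (chr6:47485045-47495066) and the Cul4a intron 6103 bases (chr8:13115574-13121676), and the 3′ ends and branch sites of both were not read. In all, the 5′ end of 46 of the members' 254 annotated introns could be read, so other minor-type sites among them were not looked for.

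At the gene level, the members kept close to their control values, and Cul1 had the widest difference. None of the 10 was called by limma at an adjusted p under 0.05, against 5 of 17959 genes, or 0.0278%. At an unadjusted p under 0.05 there was 1 member, Cul1, against 16.1% of all genes. In Cul1 and Rbx1 every mutant read below every control, a pattern held by 1037 of 17959 genes, or 5.77%. The other members overlapped between groups, while in 2603 of the 17959 genes every mutant read above every control. The members' median log2 difference, mutant minus control on the log2(TPM + 1) scale, was -0.01, while the median of all genes was 0.09. That median moved to -0.0017 under median-ratio scaling and to -0.03 when the libraries were scaled to protein-coding genes, and the members' median moved with it to -0.12 and -0.15.

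**Figure D1:**
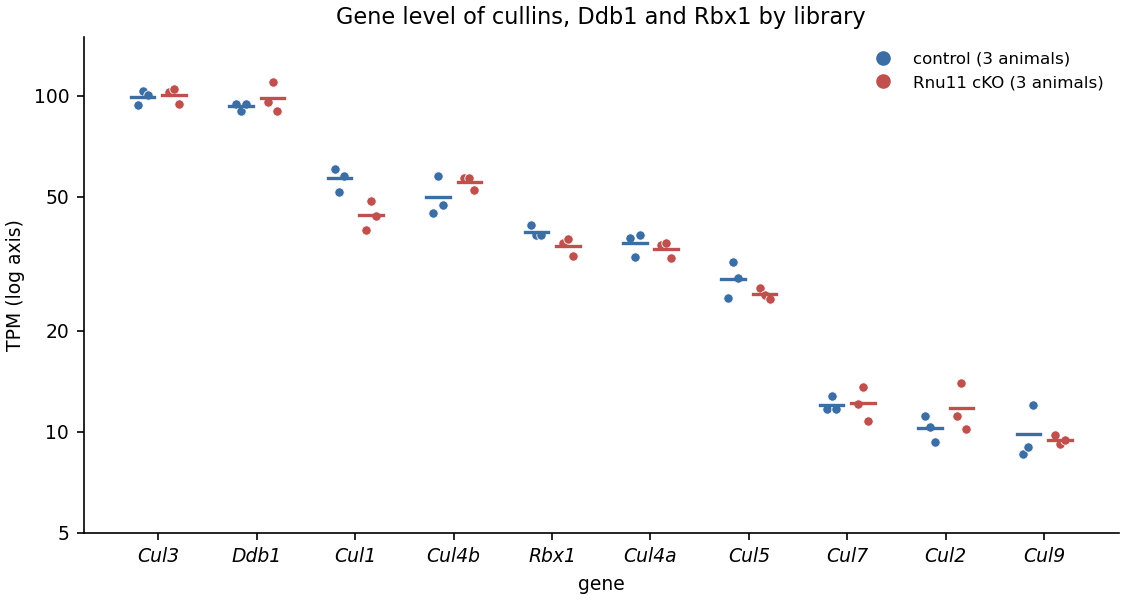
TPM (log axis) of the 10 genes in each of the 3 control (blue) and 3 Rnu11 cKO (red) libraries, in order of the control mean, which is drawn as a line beside the mutant mean. The groups separate in Cul1 and Rbx1, and the other genes overlap.

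Cul1, the scaffold of the SCF ligases, lies at chr6:47453398-47526139. It stood at 60.7, 51.8 and 57.8 TPM in control testes and at 39.7, 48.8 and 43.8 TPM in mutants. The lowest control was above the highest mutant by a narrow margin. The log2 difference was -0.36 (SE 0.11, limma adjusted p = 0.294), and it ran from -0.50 to -0.29 over the alternatives, with adjusted p from 0.155 to 0.624. Rbx1, which closes the ligase with its RING domain, stood at 41.2, 38.4 and 38.6 TPM in control testes and at 36.4, 37.4 and 33.5 TPM in mutants, a log2 difference of -0.14 (SE 0.09, limma adjusted p = 0.424). Its pseudogene Rbx1-ps was at 3.79 ± 0.86 TPM in control testes and 3.76 ± 0.68 TPM in mutants (SD, n = 3), and reads could be split between these copies.

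The Cul4 arm was nearly level. Cul4a, at chr8:13105621-13147940, stood at 37.8, 33.2 and 38.5 TPM in control testes and at 35.9, 36.5 and 33.0 TPM in mutants, a log2 difference of -0.05 (SE 0.10). Its X-linked paralogue Cul4b stood at 44.8, 57.6 and 47.2 TPM in control testes and at 57.0, 56.9 and 52.3 TPM in mutants, a log2 difference of 0.16 (SE 0.12). Control 2 was the lowest control for Cul4a and the highest library for Cul4b, and the groups overlapped in both genes. Ddb1, the adaptor that joins CUL4 to its DCAF receptors, stood at 94.5, 90.4 and 94.9 TPM in control testes and at 96.0, 109.7 and 90.2 TPM in mutants. Its log2 difference of 0.08 (SE 0.10) turned to -0.036 with the first of these scalings and to -0.064 with the second. Ddb1 shares its locus with Tkfc on the opposite strand, and whether the quantification used the strand is not stated.

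Cul3, which takes BTB proteins as substrate receptors, was the most abundant cullin, at 93.7, 103 and 100.5 TPM in control testes and 103, 105 and 94.9 TPM in mutants. Its log2 difference of 0.02 (SE 0.09) turned to -0.087 and -0.12 under the same scalings. Cul5, the scaffold that pairs with RNF7 and SOCS-box proteins, stood at 24.9, 32.1 and 28.8 TPM in control testes and at 26.7, 25.6 and 24.8 TPM in mutants (log2 difference -0.14, SE 0.11). Cul2, the scaffold of the VHL ligase, stood at 11.1, 10.3 and 9.29 TPM in control testes and at 11.2, 13.9 and 10.2 TPM in mutants (log2 difference 0.18, SE 0.13). The groups overlapped in all 3 genes, and mutant 2 carried the high Cul2 value. Cul3 shares its locus with Gm37902 and Gm37262 on the same strand, at 5.22 and 2.27 TPM in control testes and 5.40 and 2.46 TPM in mutants on average. On the opposite strand of Cul5 lie the antisense gene Gm16124 and the snoRNA Gm22304, which averaged 5.88 TPM in control testes and 17.6 TPM in mutants. Whether their reads entered the values of Cul3 and Cul5 or their isoforms was not tested.

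The large cullins Cul7 and Cul9 were low. Cul7, which works with the F-box protein FBXW8, was at 12.0 ± 0.61 TPM in control testes and 12.2 ± 1.40 TPM in mutants (SD, n = 3), and its log2 difference of 0.01 (SE 0.11) turned to -0.095 and -0.13 under those scalings. Cul9 was at 9.85 ± 1.86 TPM in control testes and 9.47 ± 0.26 TPM in mutants (log2 difference -0.04, SE 0.13), with control 3 alone at 12.0 TPM. For the 8 members other than Cul1 and Rbx1, the limma adjusted p ran from 0.492 to 0.971.

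Ranked by control mean, the order was Cul3 (99.1 TPM), Ddb1 (93.2), Cul1 (56.8), Cul4b (49.9), Rbx1 (39.4), Cul4a (36.5), Cul5 (28.6), Cul7 (12.0), Cul2 (10.2) and Cul9 (9.85). Neighbours whose control libraries overlapped were Cul3 with Ddb1, Cul1 with Cul4b, Rbx1 with Cul4a, and Cul2 with Cul9. In mutants Cul4b, at 55.4 TPM, stood above Cul1, at 44.1 TPM, and every mutant value of Cul4b was above every mutant value of Cul1.

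As a share of the summed TPM of the 8 cullins, Cul1 read lower and Cul3 higher in every mutant. The sum itself was 293, 309.9 and 306 TPM in control testes and 295, 309.6 and 279 TPM in mutants. Cul1 made up 20.7%, 16.7% and 18.9% of it in controls and 13.5%, 15.8% and 15.7% in mutants. Cul3 made up 31.9%, 33.3% and 32.9% in controls and 34.8%, 33.9% and 34.0% in mutants. The shares of a library have a fixed total, so a lower share of 1 cullin raises others, and they are not independent. In TPM, Cul3 overlapped between groups, with means of 99.1 in control testes and 100.9 in mutants. Each of these gave p = 0.1 in a two-sided exact permutation test, the smallest that 3 against 3 can give, and 0.45 after Benjamini-Hochberg adjustment over 9 measures. Cul4b moved from 16.4% ± 1.87 to 18.8% ± 0.47 and Cul4a from 12.1% ± 1.18 to 11.9% ± 0.21 (SD, n = 3), with overlap. The log2 ratio of Cul4a to Cul4b was -0.45 ± 0.30 in controls and -0.66 ± 0.02 in mutants (SD, n = 3, exact permutation p = 0.4). The groups did not overlap in 2 of these 9 measures, and in 4 without control 1 and 5 without control 2. With a library left out, groups separate more easily, so these counts are not alike.

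**Figure D2:**
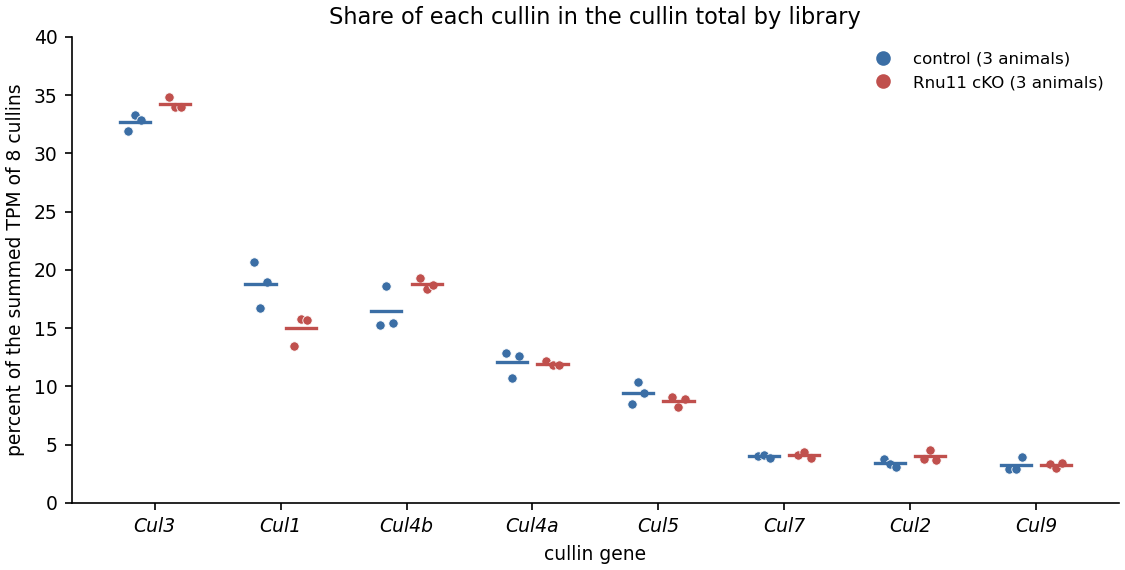
Percent of the summed TPM of 8 cullins taken by each cullin in the 3 control (blue) and 3 Rnu11 cKO (red) libraries, with lines at the group means. Cul1 takes 16.7% to 20.7% in controls and 13.5% to 15.8% in mutants, and Cul3 lies higher in every mutant.

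At the minor-type sites of Cul1 and Cul4a, more of the isoform signal ran past the site in mutants. The measure is the summed TPM of isoforms that splice at a site, set against that of isoforms whose exon continues at least 8 bases beyond it. It was chosen after the isoform values had been seen. At the Cul1 exon 2 site the forms are Cul1-201, Cul1-204 and Cul1-205 against Cul1-203, a short isoform whose last exon goes on past the site and ends 132 bases beyond the first intron base. At the Cul4a exon 3 site they are Cul4a-201, Cul4a-202 and Cul4a-207 against Cul4a-205, annotated as a retained intron, which ends 1621 bases beyond it.

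**Figure D3:**
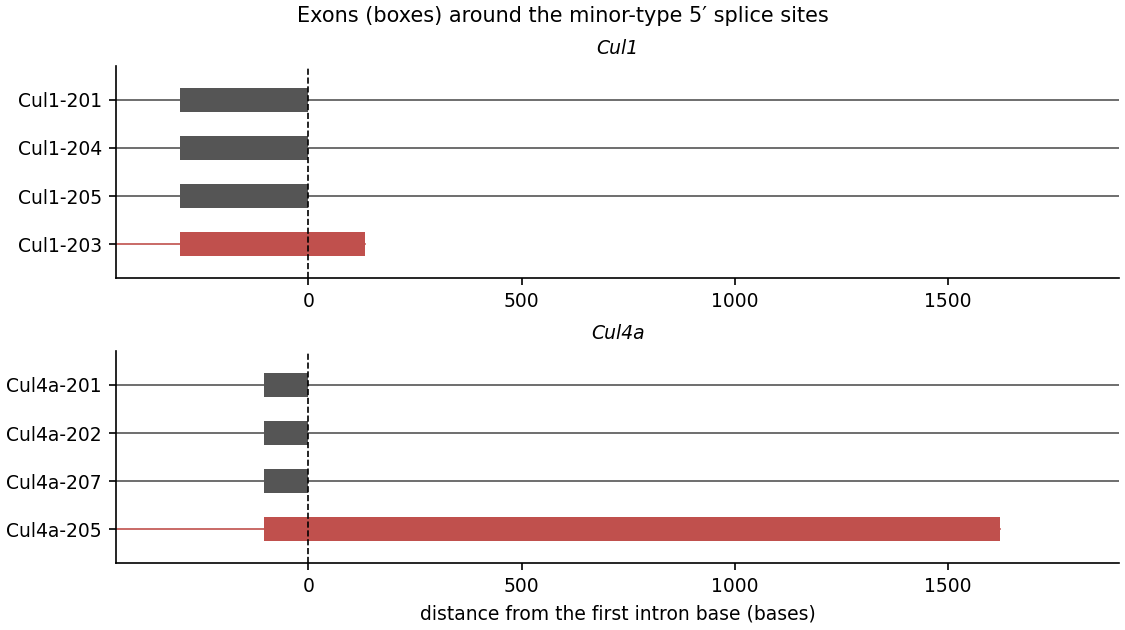
Exons (boxes) of the annotated isoforms around the minor-type 5′ splice sites of Cul1 (top) and Cul4a (bottom), by distance in bases from the first intron base (dashed line), with isoforms that splice at the site in grey and the one that reads through in red. The red exons end 132 bases past that base in Cul1 and 1621 bases past it in Cul4a.

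Cul1-203, the read-through form, stood at 2.86, 3.00 and 3.24 TPM in control testes and at 6.21, 6.67 and 7.89 TPM in mutants, a ratio of the means of 2.28. The lowest mutant was well above the highest control. The forms spliced at the site summed to 30.99, 30.8 and 31.9 TPM in control testes and to 19.9, 22.3 and 19.99 TPM in mutants, so the sums separated in the opposite direction; Cul1-205, under 1 TPM, was at 0.86 TPM in control testes and 0.90 TPM in mutants on average. The read-through form thus made up 8.84% ± 0.39 of the signal at the site in controls and 25.0% ± 2.86 in mutants (SD, n = 3). The log2 ratio of spliced to read-through TPM differed by -1.75 (SE 0.16, limma adjusted p = 0.113), which ranked 5 of 19927 sites by p. The call was missed under every alternative, with differences from -1.83 to -1.63 and adjusted p from 0.0518 to 0.595.

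In Cul4a the shift was smaller. Cul4a-205 stood at 4.09, 3.88 and 4.75 TPM in control testes and at 6.30, 5.93 and 5.38 TPM in mutants. All 3 mutants were above all 3 controls. The spliced forms summed to 30.9, 26.4 and 31.2 TPM in control testes and to 26.1, 26.0 and 25.2 TPM in mutants, again without overlap, although control 2 was close to the mutants. Taken singly, the 3 spliced forms each overlapped between groups. The read-through share was 12.6% ± 0.79 in controls and 18.5% ± 0.92 in mutants (SD, n = 3). The log2 ratio differed by -0.65 (SE 0.14, limma adjusted p = 0.678), and over the alternatives by -0.70 to -0.60 with adjusted p from 0.485 to 0.947.

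**Figure D4:**
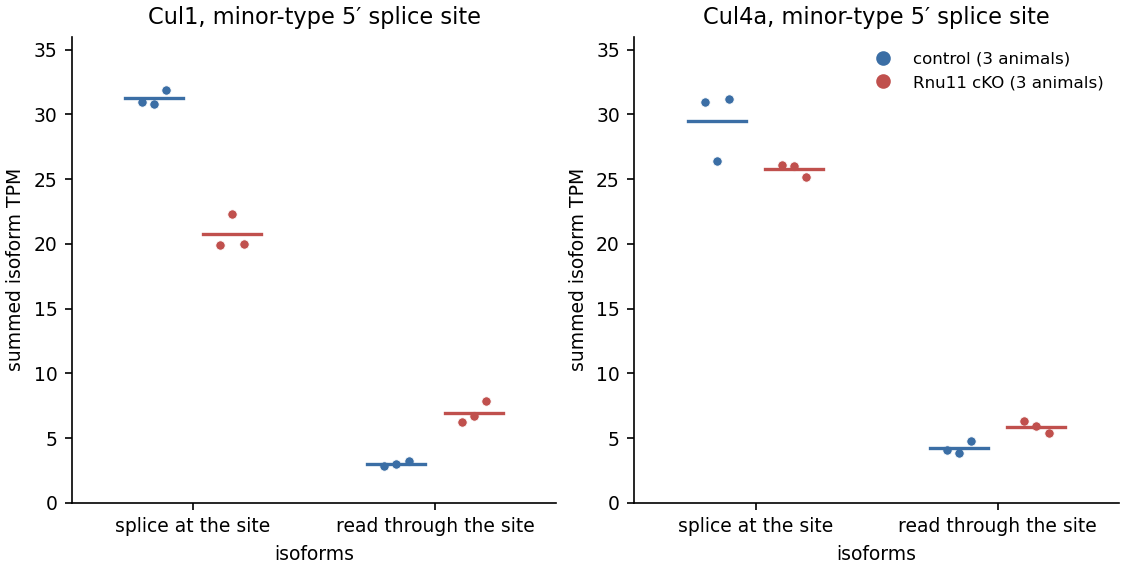
Summed isoform TPM at the minor-type 5′ splice site of Cul1 (left) and Cul4a (right), for isoforms that splice there and for the isoform that reads through, in 3 control (blue) and 3 Rnu11 cKO (red) libraries with lines at the means. In both genes the read-through form lies higher and the spliced forms lie lower in every mutant.

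Limma called none of the 34 member sites with enough signal in both forms, out of 38 with both forms annotated. The background is 0 of 19927 sites called, or 0.0%. At an unadjusted p under 0.05 there were 5 member sites, or 14.7%, beside 6.15% of all sites. The read-through share of every mutant lay above every control at 5 member sites, or 14.7%, beside 5.11% of all sites. It lay below every control at 1 member site, beside 1396 of 19704 other sites and 4 of 223 minor-type sites. Sites within a gene often rest on the same isoforms and are not independent: 4 of the Cul7 sites and 4 of the Cul9 sites gave identical values. The comparison site after Cul1 exon 18 also had a lower ratio in mutants (-0.80, SE 0.24, limma adjusted p = 0.7999). There the read-through form Cul1-209 was at 3.24 ± 0.93 TPM in control testes and 3.63 ± 0.45 TPM in mutants (SD, n = 3), and the ratio moved mainly through Cul1-201 and Cul1-204, which it shares with the exon 2 site. At the comparison site after Cul4a exon 7 the read-through share was 10.9% ± 2.12 in controls and 9.56% ± 1.01 in mutants (SD, n = 3, log2 ratio difference 0.19, SE 0.21). The remaining sites at an unadjusted p under 0.05 were a Ddb1 site at position 10609828 (-1.24, SE 0.35) and the Cul5 exon 6 site (0.70, SE 0.23). The Ddb1 site is used by Ddb1-203 and ends no exon of Ddb1-201. At the Cul5 site the read-through share read lower in mutants.

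Over all 223 tested minor-type sites in 215 genes, the Cul1 and Cul4a sites included, the median log2 ratio difference was -0.25, and 71.7% had a lower ratio in mutants. Over 19704 other sites the median was 0.04, and 43.3% were lower. Among sites without a mismatch to the motif, as in Cul4a, the median of 125 was -0.42. Among 98 with 1 mismatch, as in Cul1, it was -0.07. By p-value the Cul1 site ranked 2 and the Cul4a site 25 of the 223. These medians are descriptions with no test.

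**Figure D5:**
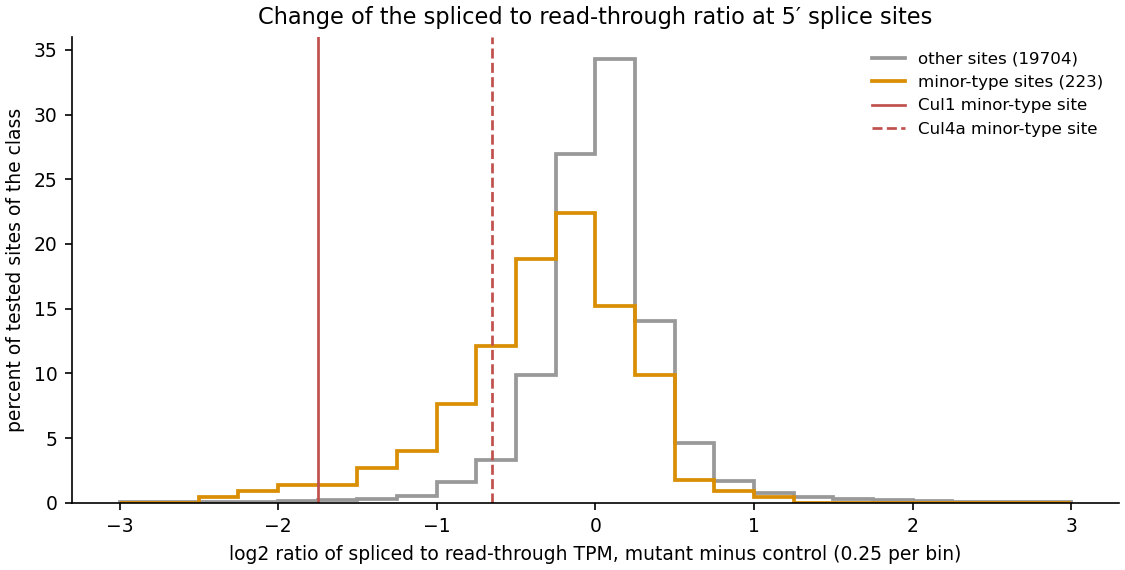
Percent of tested 5′ splice sites by their change in the log2 ratio of spliced to read-through TPM (mutant minus control, 0.25 per bin, larger changes placed in the end bins), for 223 minor-type sites (orange) and 19704 other sites (grey). The Cul1 site lies at -1.75 and the Cul4a site at -0.65, both on the left of the grey median of 0.04.

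Across whole isoforms, 51 of the members' 78 annotated isoforms were tested. None was called by limma, beside 0.0136% of 44197 isoforms. At an unadjusted p under 0.05 there were 10, or 19.6%, beside 11.2% of all isoforms: 4 read higher and 6 lower. The groups did not overlap in 11, or 21.6%, beside 16.8% of all. Of 48 isoform shares tested none was called, beside 0.0112% of all, and 7, or 14.6%, had an unadjusted p under 0.05, beside 5.78% of all. Within Cul1, 4 of 7 tested isoforms had an unadjusted p under 0.05, the most of any member.

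Cul1-201, a coding form of 3161 bases, stood at 23.4, 20.9 and 24.2 TPM in control testes and at 14.8, 18.2 and 16.3 TPM in mutants (log2 difference -0.45, SE 0.12, limma adjusted p = 0.433). Cul1-204, a coding form with another first exon, stood at 6.94, 8.90 and 6.79 TPM in control testes and at 3.87, 3.08 and 3.27 TPM in mutants (-0.95, SE 0.14, limma adjusted p = 0.242). Both separated the groups, with mutants below. Cul1-208, a coding form of 501 bases, was at 11.2 ± 3.31 TPM in control testes and 5.78 ± 1.44 TPM in mutants (SD, n = 3), also without overlap. Cul1-203 differed by 0.97 (SE 0.12, limma adjusted p = 0.151), and its share of Cul1 went from 5.37% ± 0.58 to 15.8% ± 2.17 (SD, n = 3). Cul1-206, Cul1-207 and Cul1-209 overlapped between groups.

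Outside Cul1, the higher isoforms at an unadjusted p under 0.05 were Cul4a-205 (0.39), Cul3-204 and Ddb1-204. Cul3-204, annotated as a retained intron, stood at 21.1, 20.8 and 21.6 TPM in control testes and at 26.0, 32.9 and 28.6 TPM in mutants (0.44, SE 0.12, limma adjusted p = 0.433). Its share of Cul3 was 21.4% ± 1.18 in controls and 28.9% ± 3.17 in mutants (SD, n = 3). The TPM of the coding forms Cul3-202 and Cul3-201 overlapped between groups, but the Cul3-202 share was lower in every mutant, at 43.5% against 48.8% on average. Ddb1-204 was low, at 0.69 ± 0.37 TPM in control testes and 1.97 ± 0.73 TPM in mutants (SD, n = 3). The lower ones were Cul5-208, a retained intron at 3.62 ± 1.28 TPM in control testes and 1.79 ± 0.15 TPM in mutants (-0.69), Ddb1-203 (-0.47) and the main coding form Rbx1-204, at 24.7 ± 0.77 and 20.97 ± 1.08 TPM (-0.23; SD, n = 3).

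The TPM of isoforms that carry most of a gene otherwise overlapped between groups. Cul4a-201, the longest coding form, had log2 difference -0.18 (SE 0.12), with 57.7% of Cul4a in controls and 52.4% in mutants. Ddb1-201, with 58.6% of Ddb1 in controls and 54.6% in mutants, had -0.03. The shares of Cul4a-201 and Ddb1-201 were lower in every mutant than in any control, neither at an unadjusted p under 0.05. Shares of other member isoforms also separated the groups, in both directions. Among them were Rbx1-201 and Cul5-206, with mutants above, and Rbx1-204 and Cul3-202, with mutants below. How often shares separate over all isoforms was not counted. Cul4b-203, with 65.2% of Cul4b in controls, had 0.22, and Cul5-201, with 49.3% of Cul5, had -0.09. In Cul2 the leading form, Cul2-202, is annotated as a target of nonsense-mediated decay, and it held 52.0% of the gene in controls and 51.7% in mutants. The minor form Cul2-203, under 1 TPM on average, went from 2.78% ± 0.56 to 7.77% ± 1.71 of Cul2 (SD, n = 3, share log2 ratio difference 1.27, limma adjusted p = 0.610). Cul9-203, a retained intron, went from 13.8% ± 4.43 to 20.8% ± 2.37 of Cul9 (SD, n = 3). In all, 27 member isoforms were under the filter of 1 TPM, Cul2-203 and Cul1-205 among them.

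A ratio over whole introns was tested for 73 member introns. It set isoforms that splice exactly an intron against isoforms that span it without splicing exactly it. The latter include isoforms that splice an overlapping intron, so the ratio is not a measure of intron retention alone. None was called by limma, beside 0.0157% of 44598 introns, and 5, or 6.85%, had an unadjusted p under 0.05, beside 5.59% of all. The smallest p belonged to the Cul1 intron that ends before exon 2 (chr6:47454484-47484743), whose ratio was higher in mutants (0.80, SE 0.18, limma adjusted p = 0.754). The forms that splice that intron, Cul1-201 and Cul1-203, summed to 25.9 TPM in control testes and 23.4 TPM in mutants on average. The other side of the ratio averaged 19.6 TPM in control testes and 10.1 TPM in mutants. Cul1-208, at 11.2 and 5.78 TPM, belongs to that side but to neither form at the exon 2 site. The value thus rests only in part on the isoforms measured at that site. The next was a Ddb1 intron (chr19:10614969-10619048), with 1.45 (SE 0.46), which Ddb1-204 alone splices. Its neighbours in Ddb1 (chr19:10615591-10619048 and chr19:10614969-10615487) rest largely on the same isoforms, with -1.23 (SE 0.41) and -1.25 (SE 0.42). The remaining 1 of these 5, with a smaller p than both neighbours, was the 78-base Cul1 intron after exon 18, with -0.80 (SE 0.26). The introns behind the minor-type sites of Cul1 and Cul4a were not among the introns tested.

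The partners of the cullins were read from lists of 176 genes, of which 171 were tested. None was called by limma. At an unadjusted p under 0.05, 14, or 8.19%, read higher and 9, or 5.26%, lower, while over all genes 12.1% read higher and 3.98% lower. The median log2 difference was 0.07, beside 0.09 over all genes. The adaptors were steady: Skp1a, which links CUL1 to F-box proteins, was at 91.8 ± 5.43 TPM in control testes and 87.0 ± 5.16 TPM in mutants, and Elob, the elongin adaptor of CUL2 and CUL5, at 147 ± 7.01 and 156 ± 8.05 TPM (SD, n = 3). Rnf7, the RING partner of CUL5, was at 63.3 ± 3.31 and 59.97 ± 2.79 TPM (SD, n = 3).

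Of 31 Cul1 partners, 16 read higher and 15 lower, with 3 and 2 at an unadjusted p under 0.05. Fbxo30, an F-box receptor, was at 10.2 ± 0.85 TPM in control testes and 7.85 ± 0.32 TPM in mutants (log2 difference -0.34), and Fbxo21 at 52.3 ± 4.27 and 71.2 ± 12.2 TPM (0.43; SD, n = 3). Fbxo4 differed by 0.81 and Fbxo7 by -0.25. Among 27 DCAF receptors and Ddb1 partners, 17 read higher and 10 lower. Dtl, the receptor that targets CDT1 during replication, stood at 31.4, 28.3 and 34.4 TPM in control testes and at 23.2, 23.5 and 23.7 TPM in mutants (-0.40, SE 0.10, limma adjusted p = 0.294). Dcaf1 differed by -0.31, Brwd3 by 0.44 and Dcaf12 by 0.32.

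Of 30 Cul3 BTB receptors tested, 24 read higher and 6 lower. Keap1, the receptor for NRF2, was at 10.9 ± 1.01 TPM in control testes and 14.4 ± 2.39 TPM in mutants (0.37; SD, n = 3). Klhl25 differed by 0.41, Kbtbd6 by -0.54 and Kbtbd8 by -0.26. Of 13 Cul2 partners, 12 read higher and only Lrr1 lower, with -0.37, beside Appbp2 with 0.30 and Fem1b with 0.24. Of 23 Cul5 partners, 20 read higher and 3 lower, with Asb1 at -0.55, Rnf7 at -0.08, Pcmtd1 at 0.44 and Asb7 at 0.28. All 3 Cul7 partners read higher: Obsl1 stood at 86.3, 121 and 82.0 TPM in control testes and at 175, 164 and 118 TPM in mutants (0.66, with overlap), and Ccdc8 differed by 0.38. Over all genes, 66.4% read higher in mutants.

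Of 10 genes for NEDD8 conjugation, 8 read higher and 2 lower, none at an unadjusted p under 0.05. Nedd8 itself was at 138 ± 6.56 TPM in control testes and 142 ± 9.61 TPM in mutants (SD, n = 3). Dcun1d1 differed by 0.19, Dcun1d2 by 0.17, Nae1 by -0.0043 and Ube2f by -0.05, and the last of these turned positive without 1 of 2 libraries. Uba3, a subunit of the NEDD8-activating enzyme, has a minor-type site too, whose read-through share was 14.0% ± 1.18 in controls and 15.4% ± 1.14 in mutants (SD, n = 3, log2 ratio difference -0.16). At the minor-type site of Dcaf4 the log2 ratio differed by -0.25 (SE 0.33). Of 16 genes for NEDD8 removal and cullin exchange, 6 read higher and 10 lower, also none at that p: Cops9 differed by 0.18, Senp8 by 0.24, Cops7a by -0.11 and Cops8 by -0.11.

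Of 7 conjugating partners tested, 4 read higher and 3 lower, with Ube2d1 at 0.75, Ube2r2 at 0.17, Ube2d2a at -0.05 and Ube2d3 at -0.05. Among 11 substrates 6 read higher and 5 lower. Ccne1, which encodes cyclin E1, a target of the FBXW7 ligase on CUL1, stood at 6.28, 7.37 and 6.78 TPM in control testes and at 4.70, 4.501 and 4.62 TPM in mutants (-0.48, SE 0.10, limma adjusted p = 0.294), without overlap. Cdt1 differed by -0.16, Kmt5a by 0.24, and Nfe2l2, which encodes NRF2, by 0.43. Protein levels were not measured.

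Over the 6 libraries, the protein-coding genes whose level was most like that of Cul4a were Glb1l (Pearson r 0.994), Bbip1 (0.989), Hdgfl2 (0.984) and R3hdm2 (0.975), out of 9326 genes compared on the log2(TPM + 1) scale. All 4, like Cul4a, were low in control 2 and in mutant 3. These are the top of many genes over few libraries, and they are given as a description.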

How the data were processed

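Whole testes of 3 control and 3 Rnu11 cKO animals at postnatal day 14 were sequenced as stranded, rRNA-depleted total RNA, per the labels' protocols. The submitters' processing notes name HISAT2 and the build GRCm38; the sources used here do not name the quantifier or its annotation. TPM were deposited by the authors per gene and per isoform, with no counts. Isoform TPM are model estimates, and total RNA also holds unspliced RNA, so an isoform that runs into an intron can take up such reads; this was not tested. The authors' deposited log2 fold changes were not used; their group averages equal the library means.

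All genes that averaged 1 TPM or more were tested together with limma 3.58.1 in R 4.3.3 (trend, two-sided) on log2(TPM + 1); p-values were adjusted by Benjamini-Hochberg and called under 0.05, and isoforms were treated likewise. Such differences understate the change of genes near 1 TPM. Isoform shares (genes of at least 5 TPM, shares of 5% to 95%), introns and 5′ splice sites (both forms at least 0.5 TPM) were tested as log2 ratios with 0.1 TPM added, without trend. The splice-site measure was added after the data were seen. The limma p-values set the group difference against the spread between these animals, which limma moderates with that of all features tested. Isoforms were matched to GENCODE M21 (141429 of 142647).

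The members and gene lists were chosen with earlier results of these data known. Named were every member, per partner list the 2 higher and 2 lower genes with the smallest p, member isoforms of at least 1 TPM (those not named singly are given as counts), the 5 member introns with the smallest p, and the 4 genes most like Cul4a. Skp1a, Elob, Nedd8, Uba3, Dcaf4 and Cul2-203 were named after their values were seen. Alternatives were other pseudocounts, filters and scalings, no trend, a replicate block, and each library left out. Tested on simulated data, the fit over 17959 genes found 13.2% of changes of 0.5 log2 units, 60.6% of changes of 1 and 87.9% of changes of 2. Over 44197 isoforms these shares were 1.5%, 34.8% and 75.8%, over 19927 splice sites 0.0%, 4.5% and 40.9%, and over 44598 introns 0.0% at each size. Of the simulated features left unchanged, 7 genes, 7 isoforms, 2 splice sites and 0 introns were called. Tables and figures were made with pandas 2.3.3 and matplotlib 3.10.9 in Python 3.11.15.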

Additional observations from a re-analysis of the deposited data

How the results depend on the processing

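No member, partner gene, member isoform, isoform share, intron or splice site passed the limma threshold under any alternative. Over all genes, 5 were called as reported, 8 with a pseudocount of 0.1 TPM, 3 with median-ratio scaling, without trend or at 5 TPM, 0 without a filter, and 4 to 9 with 1 library left out. Same-numbered libraries did not deviate together (correlations -0.069, 0.035 and 0.077), so the numbers were not taken as pairs; the fit with a replicate block called 0 genes and put the Cul1 exon 2 site at an adjusted p of 0.595. Depth is unknown and isoform TPM are estimates, so small differences are limited by the 3 animals per group.

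Log2 differences that changed sign after median-ratio scaling were Cul3 -0.087, Cul7 -0.095, Ddb1 -0.036, Cul4b-201 -0.084, Cul4b-202 -0.081, Cul5-206 -0.035, Cul7-201 -0.084, Cul7-203 -0.042, Ddb1-205 -0.075, Rbx1-201 -0.054 and Rbx1-203 -0.034, and after protein-coding scaling Cul3 -0.12, Cul7 -0.13 and Ddb1 -0.064; both scalings lowered the median of all genes, from 0.09 to -0.0017 and -0.03. With 1 library left out, log2 differences crossed 0 for Cul1-209 (-0.0019 to 0.31), Cul2-201 (-0.0024 to 0.20), Cul2-205 (-0.13 to 0.11), Cul3 (-0.015 to 0.068), Cul3-203 (-0.13 to 0.28), Cul3-206 (-0.31 to 0.064), Cul4b-201 (-0.20 to 0.14), Cul4b-202 (-0.17 to 0.16), Cul4b-204 (-0.16 to 0.22), Cul5-201 (-0.16 to 0.0086), Cul5-206 (-0.031 to 0.10), Cul7 (-0.067 to 0.087), Cul7-201 (-0.14 to 0.11), Cul7-203 (-0.024 to 0.099), Cul7-204 (-0.32 to 0.090), Cul9 (-0.12 to 0.098), Cul9-204 (-0.24 to 0.012), Ddb1 (-0.0021 to 0.14), Ddb1-201 (-0.083 to 0.0049), Ddb1-205 (-0.21 to 0.19), Ddb1-207 (-0.13 to 0.088), Ddb1-209 (-0.22 to 0.024), Nae1 (-0.051 to 0.058), Rbx1-201 (-0.020 to 0.12), Rbx1-202 (-0.16 to 0.0064), Rbx1-203 (-0.069 to 0.16), Ube2d2a (-0.15 to 0.022) and Ube2f (-0.14 to 0.020). In percentage points of the cullin sum, so did Cul4a (-0.82 to 0.27) and Cul9 (-0.20 to 0.31). The groups did not overlap in 2 to 5 of the 9 share measures, and groups with fewer libraries separate more easily. For all of these the cause was not tested.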
